A study of Mus musculus with 6 samples.

Results

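The data describe 29 genes for RNA processing and translation in whole mouse hearts, compared between 3 wild-type and 3 Pgc1b knockout animals. The members were chosen by name. They are the genes with a measured probe set whose symbol starts with 1 of 19 prefixes used for translation initiation and elongation factors, poly(A) and 3' end factors, RNA-binding proteins, RNA helicases, splicing proteins, stress granule proteins and RNA polymerase subunits. Of the 19 prefixes, 14 had a member, and Eef, Hnrp, Sfrs, Prpf and Lsm had none. The 29 genes came from 34 probe sets, out of 494 genes and 597 probe sets with a single gene symbol in the table, and each gene was represented by its probe set with the highest mean over the 6 arrays.

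Both groups had a mixed background of sv129 and C57BL/6. The wild-type hearts were the controls, and the knockout hearts came from mice of an earlier study that lack Pgc1b, named Ppargc1b in current tables. The labels used here name no age, sex or treatment and do not say in which cells the gene was removed, and Ppargc1b itself was not analysed here, which leaves the genotype labels without a check on the targeted transcript. Each heart was hybridised to 1 Affymetrix 3' expression array after a whole-transcriptome amplification of its RNA. The labels call the hearts biological replicates. Values are log2 signals, so a difference of 1 is a doubling, and all differences below are knockout minus wild type. In bulk tissue, fewer cells of a type and less RNA per cell cannot be told apart. Of 10 cardiomyocyte markers only Actc1, the cardiac actin, was measured, with 14.11 ± 0.03 in the wild type and 14.12 ± 0.01 in the knockout (SD, n = 3). Of markers for 9 other cell types, 4 genes were measured, with differences of -0.08 for the endothelial Tie1, 0.31 and 0.13 for the red cell genes Bpgm and Car1, and 0.10 for the neutrophil gene Mpo, and their part in the results was not tested.

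A messenger RNA is made by RNA polymerase, spliced by the spliceosome, cut and polyadenylated at its 3' end, exported, and then translated from a start codon that the small ribosomal subunit finds with the help of initiation factors. SR proteins and hnRNPs bind the transcript and steer the choice of splice sites, and DEAD-box and DEAH-box helicases rearrange RNA and RNA-protein complexes at nearly every step. Coactivators of the PGC-1 family carry an RNA recognition motif of the kind found in splicing proteins, besides the parts that bind nuclear receptors. Most of the 29 genes are expressed in nearly all tissues.

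Promoter sequences are shown for 4 genes, namely the member with the smallest p-value (Cstf2t), the one with the largest positive difference (Hnrnph2), the one spliceosome particle gene whose groups did not overlap (Snrpc) and a polymerase subunit with a motif close to its start (Polr2f). They are the 250 bases before the RefSeq start of the gene (build GRCm38.p6), 5′ to 3′ on the strand of the gene, which is the plus strand for all 4. Capitals mark matches to CCGGAAG, the core bound by ETS family factors, on either strand.
Cstf2t, chr19:31082591-31082840: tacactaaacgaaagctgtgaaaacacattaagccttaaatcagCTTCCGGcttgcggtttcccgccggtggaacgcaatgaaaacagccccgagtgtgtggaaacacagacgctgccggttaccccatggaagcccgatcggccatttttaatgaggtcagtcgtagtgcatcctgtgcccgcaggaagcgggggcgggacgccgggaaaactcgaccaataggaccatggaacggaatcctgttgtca
Hnrnph2, chrX:134600929-134601178: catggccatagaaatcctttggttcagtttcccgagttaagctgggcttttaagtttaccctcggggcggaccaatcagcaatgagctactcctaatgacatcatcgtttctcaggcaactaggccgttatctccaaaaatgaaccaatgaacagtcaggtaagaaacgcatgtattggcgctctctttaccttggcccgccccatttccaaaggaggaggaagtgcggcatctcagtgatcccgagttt
Snrpc, chr17:27839837-27840086: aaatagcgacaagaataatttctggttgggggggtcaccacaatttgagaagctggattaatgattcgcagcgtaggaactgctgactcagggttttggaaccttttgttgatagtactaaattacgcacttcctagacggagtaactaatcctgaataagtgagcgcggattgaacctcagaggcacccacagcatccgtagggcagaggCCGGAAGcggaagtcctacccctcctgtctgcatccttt
Polr2f, chr15:79141075-79141324: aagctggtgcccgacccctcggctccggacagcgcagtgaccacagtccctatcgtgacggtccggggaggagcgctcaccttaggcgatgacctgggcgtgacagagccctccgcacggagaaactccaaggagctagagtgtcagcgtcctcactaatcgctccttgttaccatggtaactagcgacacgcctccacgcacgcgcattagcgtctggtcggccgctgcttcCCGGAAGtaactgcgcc
The match lay 206 bases before the start in Cstf2t, 39 in Snrpc and 17 in Polr2f, counted from the first base of the match, and Hnrnph2 had none. Of the 29 genes, 24 had an entry in the promoter table, and Eif3h, Eif3i, Eif4g2, Hnrnpul2 and Polr2g did not. CCGGAAG was present in 11 of these 24, or 45.8%, in 17.7% of the promoters of 373 other measured genes and in 7.83% of those of all 27025 genes in the table, counting a gene once if any of its listed starts had a match. The 11 genes were Cpsf7, Cstf2t, Ddx1, Dhx30, Eif3c, Eif3d, Polr2f, Rbm42, Sf3b3, Snrnp27 and Snrpc. The NRF-1 motif was present in 4 of the 24, which were Ddx24, G3bp2, Hnrnph1 and Srsf2 (16.7%, against 11.8% of other measured genes and 4.23% of all genes). The E-box CACGTG was in 0 of the 24 (11.8% and 6.86%), and so was TNAAGGTCA, the element bound by oestrogen-related receptors (1.07% and 1.3%). No motif overlapped another in the promoters shown, and these counts describe letters in a window and not binding.

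As a whole the 29 genes differed little between the genotypes. Their mean level was 8.27, 8.32 and 8.28 on the wild-type arrays and 8.26, 8.36 and 8.34 on the knockout arrays. The groups overlapped, with knockout replicate 1 the lowest of the 6 arrays and knockout replicate 2 the highest. The mean over all 494 genes was also highest on knockout replicate 2, at 7.76, and lowest on knockout replicate 1 and wild-type replicate 1, both at 7.70. Among the 29 genes, 16 means were higher and 13 lower in knockout hearts, with a median difference of 0.01, the same as the 0.01 over all 494 genes, of which 52.4% were higher. With each array centred on its median the split was 12 higher and 17 lower, or 41.4% higher beside 39.7% of all genes. Differences ran from -0.28 for Cstf2t to 0.38 for Hnrnph2, and 20 of the 29, or 69%, were smaller than 0.1 in size, against 51.6% of all genes. The 29 genes also varied less within a genotype. Their median SD was 0.057 in the wild type and 0.070 in the knockout, against 0.096 and 0.107 over all genes. They were brighter too, with a median level of 8.61 against 7.75, and the part of either in the small differences was not tested.

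Limma, a linear model fitted over all 494 genes with Benjamini-Hochberg adjustment, called 0 of the 29 at an adjusted p under 0.05, where 0% of all genes were called. At an unadjusted p under 0.05 there were 3 of 29, or 10.3%, beside 11.5% of all genes. They were Cstf2t, which was lower, as were 5.87% of all genes at this threshold, and Hnrnph1 and Hnrnph2, which were higher, as were 5.67%. In 7 of 29 genes, or 24.1%, the groups showed no overlap, beside 19.4% of all genes. Of these, 4 were higher in knockout hearts (Hnrnph1, Hnrnph2, Eif3h and Eif3i), beside 9.51% of all genes, and 3 were lower (Cstf2t, Snrpc and Ddx24), beside 9.92%. Neither share stands far from that over all genes. The 95% intervals of 21 of the 29 genes lay wholly between -0.3 and 0.3, and those of 28 between -0.5 and 0.5, a change of 1.41-fold. Hnrnph2 was the exception.

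**Figure D1:**
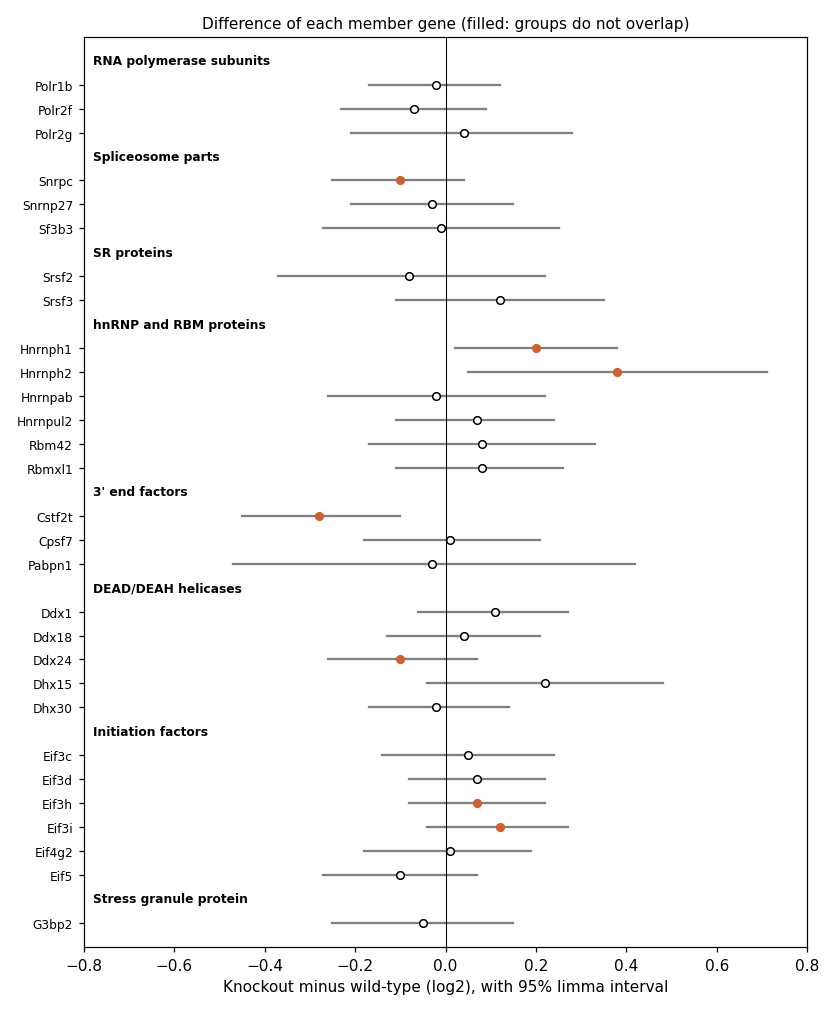
Difference between knockout and wild-type hearts (horizontal axis, log2) for each of the 29 genes, grouped by role, with limma's 95% interval as a bar. Filled points mark the 7 genes whose groups do not overlap, and only Cstf2t, Hnrnph1 and Hnrnph2 have intervals that leave out 0.

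**Figure D2:**
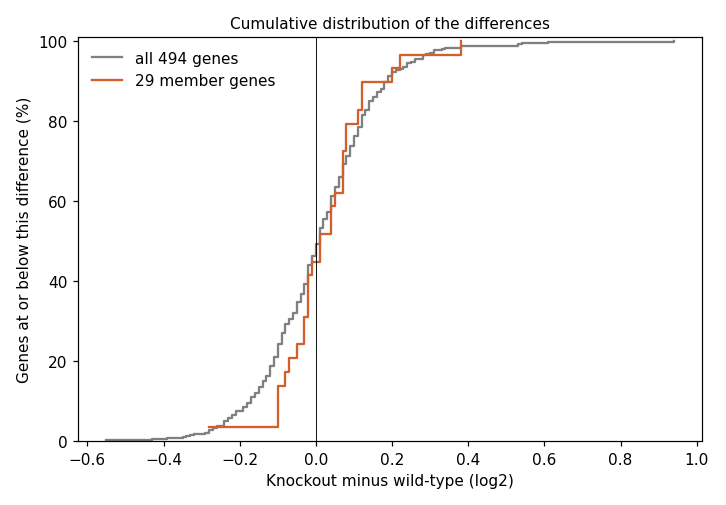
Percentage of genes (vertical axis) at or below a given knockout minus wild-type difference (horizontal axis, log2) for the 29 genes and for all 494 genes. The curves cross 50% near 0.01. The 29 genes span -0.28 to 0.38 and all genes, which include them, span -0.55 to 0.94, where a smaller set tends to span less.

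Subunits of the RNA polymerases were close to even. Polr1b, the second-largest subunit of the polymerase that makes ribosomal RNA, went from 5.59 ± 0.04 in the wild type to 5.57 ± 0.02 in the knockout (SD, n = 3 each), with a difference of -0.02 (95% interval -0.17 to 0.12). Polr2f, a small subunit shared by the nuclear RNA polymerases, differed by -0.07 (-0.23 to 0.09). Polr2g, a stalk subunit of RNA polymerase II, stood at 9.07 ± 0.07 on the wild-type arrays (SD, n = 3), the highest at 9.14, and at 8.89, 9.23 and 9.21 on the knockout arrays. Knockout replicate 1 lay below and the other knockout arrays above all wild-type arrays, so the difference of 0.04 is a mean of unlike values. No polymerase gene reached an unadjusted p under 0.05 in limma.

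Core parts of the spliceosome had slightly lower means in all 3 measured genes. Snrpc encodes a protein of the U1 particle, which recognises the 5' splice site. It stood at 8.80, 8.82 and 8.87 on the wild-type arrays and at 8.71, 8.76 and 8.71 on the knockout arrays. The 3 knockout arrays were all lower than the 3 wild-type arrays, by a margin of 0.043, and the difference was -0.10 (interval -0.25 to 0.04, unadjusted p = 0.142 and adjusted p = 0.589 in limma). Snrnp27, a protein of the tri-snRNP that joins the spliceosome after U1 and U2, differed by -0.03 and Sf3b3, a part of the U2-associated SF3b complex, by -0.01. The sign of both changed when single arrays were left out.

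The SR proteins differed from each other in sign. Srsf2, which binds exonic enhancers, stood at 6.98, 6.89 and 7.02 on the wild-type arrays and at 6.62, 6.91 and 7.13 on the knockout arrays. The knockout arrays spread on both sides of the wild-type range, and the difference of -0.08 had an interval of -0.37 to 0.22. Srsf3, the smallest SR protein and a regulator of both splicing and export, was at 9.23 ± 0.12 and 9.35 ± 0.14 (SD, n = 3), a difference of 0.12 (interval -0.11 to 0.35). Both dimmer probe sets had larger differences, 0.28 and 0.26, and the genotypes overlapped in all 3 probe sets.

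Among the heterogeneous nuclear ribonucleoproteins, 3 of 4 genes had higher means. Hnrnph2, with the largest positive difference of the 29 genes, encodes an X-linked hnRNP that binds runs of guanines in the transcript and acts in splicing and polyadenylation. Its signals were 7.19, 7.12 and 6.68 on the wild-type arrays and 7.25, 7.41 and 7.48 on the knockout arrays. All knockout arrays were above all wild-type arrays, but the margin was 0.061 and wild-type replicate 3 lay well below the others. The difference was 0.38 (interval 0.05 to 0.71, a knockout level of 130% of wild type), with an unadjusted p = 0.0284 and an adjusted p = 0.383 in limma. Without wild-type replicate 3 it was 0.222 with an unadjusted p = 0.0534 in limma.

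Hnrnph1, the close paralogue of Hnrnph2 with the same kind of RNA-binding domains, moved the same way. Its signals were 9.43, 9.33 and 9.23 on the wild-type arrays and 9.47, 9.59 and 9.53 on the knockout arrays. The groups did not overlap, by a margin of 0.044, and again wild-type replicate 3 was the lowest. The difference was 0.20 (interval 0.02 to 0.38, or 115% of wild type), with an unadjusted p = 0.0348 and an adjusted p = 0.383 in limma. Without wild-type replicate 3 it was 0.151 with an unadjusted p = 0.111 in limma. Probe sets of such similar genes may share signal, which was not tested.

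Other RNA-binding proteins had differences under 0.1. Hnrnpab, which binds AU-rich RNA, stood at 9.27, 9.24 and 9.29 on the wild-type arrays and at 9.04, 9.28 and 9.43 on the knockout arrays, so the SD was 0.03 in the wild type and 0.20 in the knockout around nearly equal means. Hnrnpul2, a member of the hnRNP U family, differed by 0.07 (interval -0.11 to 0.24). Rbm42 differed by 0.08, where wild-type replicate 1, at 7.79, lay below the other 5 arrays, at 8.11 to 8.15. Rbmxl1, a relative of the splicing regulator Rbmx, also differed by 0.08 (interval -0.11 to 0.26).

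**Figure D3:**
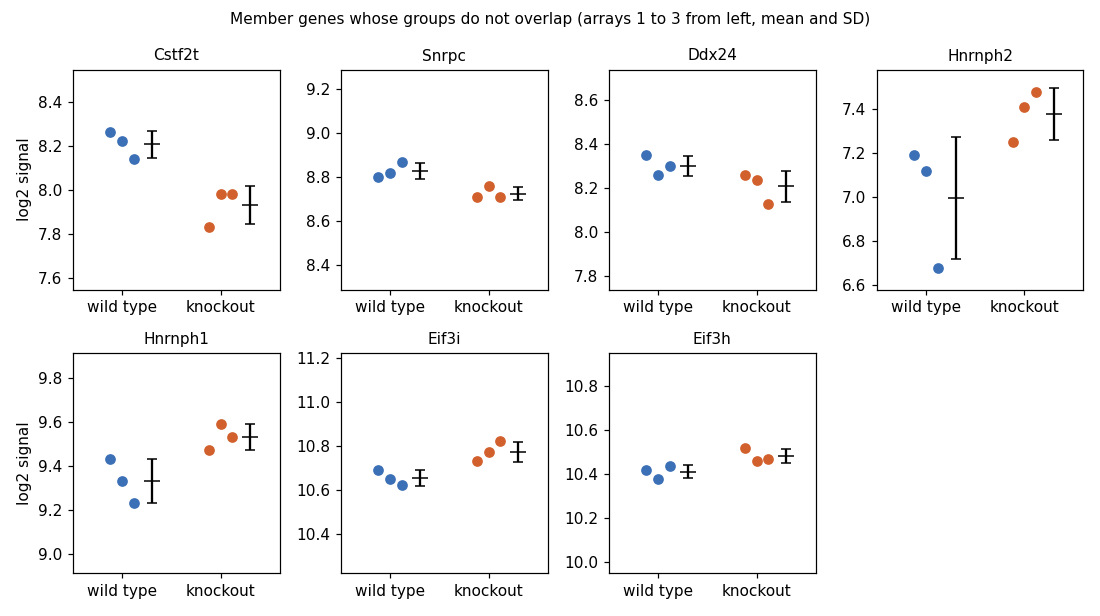
Log2 signal (vertical axis, a range of 1 in every panel) on each of the 3 wild-type and 3 knockout arrays for the 7 genes whose groups do not overlap, with the mean and SD to the right of each group. The gap is widest for Cstf2t and narrowest for Ddx24, and the low wild-type point of Hnrnph2 is replicate 3.

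Among the 3' end factors Cstf2t stood apart from the other two. It encodes a form of the cleavage stimulation factor subunit that binds GU-rich sequence downstream of the cleavage site, and in the RefSeq table it lies within the span of another gene, Prkg1. Its signals were 8.26, 8.22 and 8.14 on the wild-type arrays and 7.83, 7.98 and 7.98 on the knockout arrays. The highest knockout array was below the lowest wild-type array by a margin of 0.163, the widest among the 29 genes. The difference was -0.28 (interval -0.45 to -0.10, a knockout level of 82.5% of wild type), with an unadjusted p = 0.00693 and an adjusted p = 0.342 in limma, and the adjusted p ran from 0.206 to 0.594 over all alternatives. With 1 array removed at a time the difference lay between -0.310 and -0.227.

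The spikes added before hybridisation as a check of array handling averaged 9.52 ± 0.18 on knockout and 9.89 ± 0.23 on wild-type arrays (SD, n = 3 each), a difference of -0.38. The groups did not overlap, but the highest knockout array, at 9.68, was close to the lowest wild-type array, at 9.69. With the spike level as a covariate Cstf2t differed by -0.232 (interval -0.51 to 0.05, unadjusted p = 0.0916 in limma), Hnrnph1 by 0.315 and Hnrnph2 by 0.577. For RNA integrity, the Actb control probe sets gave a 3' minus 5' signal of 0.75 ± 0.02 in the wild type and 0.63 ± 0.11 in the knockout (SD, n = 3 each). The Actb values did not overlap either, with the highest knockout array at 0.73 and the lowest wild-type array at 0.74. Those of Gapdh gave 0.08 ± 0.09 and 0.08 ± 0.11, with overlap. The part of RNA integrity in the differences of the genes was not tested.

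Cpsf7, a subunit of the cleavage factor that selects the polyadenylation site, stood at 7.49 ± 0.13 and 7.50 ± 0.05 (SD, n = 3), a difference of 0.01 whose sign changed between alternatives. Pabpn1, the nuclear protein that coats the growing poly(A) tail, was dim and variable, with signals of 4.91, 5.54 and 5.23 on the wild-type arrays and 5.54, 5.01 and 5.05 on the knockout arrays. The highest value of each genotype was the same when rounded, and the interval of its difference, -0.47 to 0.42, was the widest of the 29.

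The helicases ranged from -0.10 to 0.22 and none reached an unadjusted p under 0.05. Dhx15, which takes spent spliceosomes apart after splicing, stood at 8.40, 8.72 and 8.40 on the wild-type arrays and at 8.80, 8.80 and 8.58 on the knockout arrays. Wild-type replicate 2 lay between the knockout values, and the other wild-type arrays below all of them. The difference was 0.22 (interval -0.04 to 0.48, unadjusted p = 0.0891 and adjusted p = 0.473 in limma). Its second probe set also differed by 0.22, there without overlap, at 8.52, 8.52 and 8.25 against 8.53, 8.81 and 8.61. In the probe set used, the difference without wild-type replicate 2 was 0.327 (unadjusted p = 0.015, adjusted p = 0.565 in limma). Removing the highest wild-type array raises the difference by construction. Without knockout replicate 3 it was 0.293 (unadjusted p = 0.0452 in limma). Without any other single array it lay between 0.166 and 0.184 (unadjusted p = 0.201 to 0.238 in limma). The adjusted p in limma ran from 0.42 to 0.786 over all alternatives.

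Ddx1, a helicase of the complex that ligates spliced tRNAs, differed by 0.11 (interval -0.06 to 0.27). Ddx24 differed by -0.10 (interval -0.26 to 0.07), and although its groups did not overlap, the lowest wild-type and the highest knockout signal were only 0.002 apart, both 8.26 when rounded. Ddx18, which acts in the making of ribosomes, differed by 0.04 in the probe set used and by 0.02 in its other one. Dhx30, which acts on RNA and ribosomes in mitochondria, differed by -0.02 (interval -0.17 to 0.14), with a knockout level of 98.9% of wild type.

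Translation initiation factors had higher means in 5 of 6 genes, all by little. Subunits of eIF3, the scaffold that holds the small ribosomal subunit during initiation, made up 4 of the 6, and all 4 had higher means, a subset singled out after its values were seen. Eif3i stood at 10.69, 10.65 and 10.62 on the wild-type arrays and at 10.73, 10.77 and 10.82 on the knockout arrays. The groups did not overlap, by a margin of 0.036, and the difference was 0.12 (interval -0.04 to 0.27, unadjusted p = 0.115 and adjusted p = 0.537 in limma). Eif3h stood at 10.42, 10.38 and 10.44 against 10.52, 10.46 and 10.47, also without overlap, with a difference of 0.07.

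Eif3d, a subunit that contacts the cap of some transcripts, differed by 0.07 as well (interval -0.08 to 0.22). Eif3c, a core subunit, differed by 0.05, and by 0.10 in its dimmer probe set. The mean of the 4 subunits was 9.87, 9.85 and 9.85 on the wild-type arrays and 9.89, 9.96 and 9.94 on the knockout arrays. The lowest knockout mean, 9.89, was just above the highest wild-type mean, 9.87, and the difference of the means was 0.08. Because the 4 were singled out after their values were seen, this separation is a description and was not tested. The sign of Eif3c changed between alternatives (-0.01 to 0.12). With each array centred on its median Eif3h differed by 0.028 and Eif3i by 0.072.

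Eif4g2, an initiation scaffold that works without the cap-binding protein, differed by 0.01, with knockout replicate 1 at 10.31 below all wild-type arrays and the other knockout arrays at 10.52 above them. Eif5, which triggers GTP hydrolysis by eIF2 at the start codon, was the 1 initiation factor with a lower mean (-0.10, interval -0.27 to 0.07). For comparison, 10 of the 12 measured genes for cytosolic ribosomal proteins had higher means, beside 52.4% of all genes, while Rpsa differed by -0.13 and Rplp2 by 0.00. Rpsa was dim, at 3.64 in the wild type and 3.51 in the knockout, where the median level of the 12 genes was 11.84. The median difference of the 12 genes was 0.14, against 0.06 for the initiation factors. The difference between these medians was not tested. G3bp2, a protein that helps to build stress granules, differed by -0.05 (interval -0.25 to 0.15), again with knockout replicate 1 the lowest array, at 6.73.

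The knockout hearts were not alike in these genes. Knockout replicate 1 was the lowest of the 3 knockout arrays in 20 of the 29 genes, or 69%, against 46.6% of all genes. It was the lowest of all 6 arrays in 9 genes, or 31%, against 23.1% of all genes, and the highest in 1, which was Eif3h. Knockout replicate 2 was the highest of all 6 in 9 genes (31%, against 24.9% of all genes). The SD was larger in knockout than in wild-type hearts for 18 of the 29 genes, or 62.1%, and for 55.7% of all genes. Without knockout replicate 1, 21 of the 29 means were higher and 8 lower (72.4% higher, beside 55.1% of all genes), the median difference was 0.077 (0.018 over all genes), and 13 genes, or 44.8%, had no overlap of the groups, against 34% of all genes. Because this array was the lowest of the knockout arrays in most of the 29 genes, leaving it out raises most knockout means by construction. Without knockout replicate 2, 12 were higher and 17 lower (41.4% higher, beside 49.8% of all genes), with a median of -0.014.

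**Figure D4:**
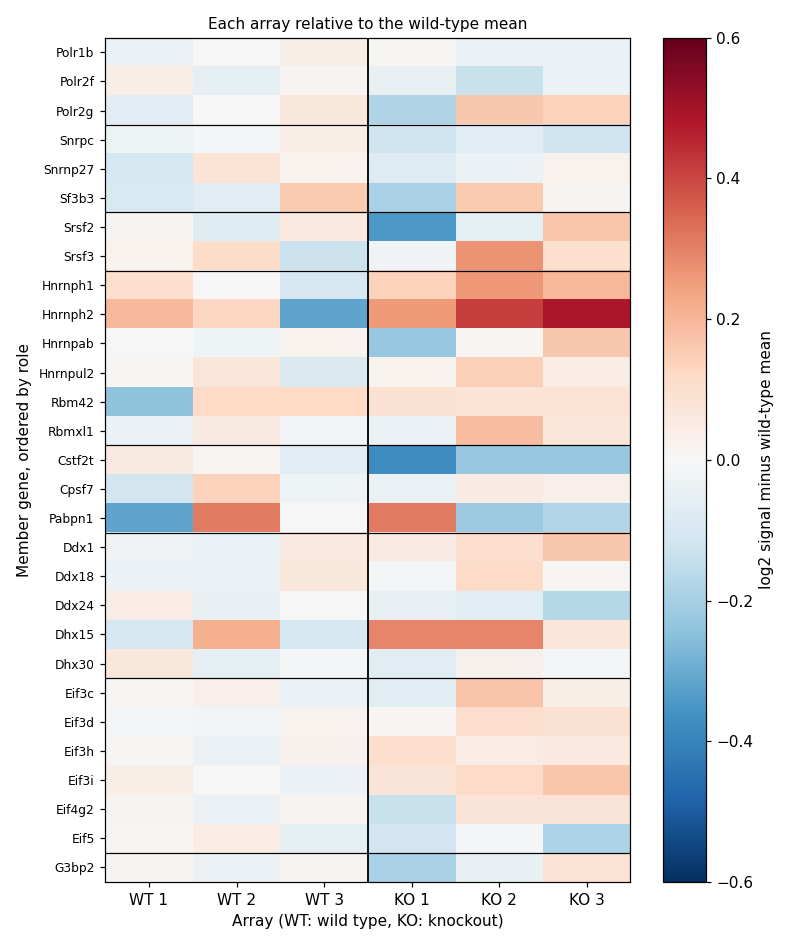
Log2 signal of each array (columns) minus the wild-type mean of the gene (colour) for the 29 genes (rows, ordered by role with lines between roles). Knockout replicate 1 is bluer than the other knockout arrays in Srsf2, Hnrnpab, G3bp2 and Polr2g, while Cstf2t is blue and Hnrnph2 red on all knockout arrays.

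A list of 171 further genes for splicing, 3' end formation, decay, ribosome assembly, transfer RNA charging, translation and transcription had 8 measured genes. Of these, 7 had higher means and 1 lower, with a median difference of 0.09, where 52.4% of all 494 genes were higher with a median of 0.01. In limma 0 of the 8 had an unadjusted p under 0.05, beside 11.5% of all genes, and 0 passed the adjustment as well. Mtif2, the mitochondrial initiation factor, had the smallest p, with 7.88 ± 0.21 in the wild type and 7.65 ± 0.22 in the knockout (SD, n = 3 each) and a difference of -0.22 (interval -0.56 to 0.11). Rars, which charges transfer RNA with arginine, differed by 0.24 (interval -0.12 to 0.61). Imp3, a protein of the particle that processes ribosomal RNA, differed by 0.10. It was the 1 gene of the 8 without overlap of the groups, beside 19.4% of all genes. Nono, a nuclear RNA-binding protein of paraspeckles, differed by 0.11 (interval -0.10 to 0.31).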

How the data were processed

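The table of log2 signals was deposited by the authors, with 1 column per array and no pooling. GCOS, Partek and RMA are named per the submitters' processing notes, without version or role. RMA usually sets all arrays to a common distribution, in which case a change is one relative to other genes. Whether this holds for the deposited values was not tested. A genome build was not given in the sources used. Values were present in 707 of 45101 rows, of which 64 were control probe sets, and the other rows were not analysed here. Of 643 gene probe sets, 597 had 1 gene symbol in a platform annotation that can be old, 26 had several and 20 none. All 597 were matched by gene ID to RefSeq (GRCm38.p6) for current symbols.

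The genotype difference was fitted in R 4.3.3 with limma 3.58.1 (lmFit, eBayes, two-sided, no filter, no covariate), and p-values were adjusted over 494 genes by the Benjamini-Hochberg method. The fit was tested on simulated data. Array medians ran from 7.45 to 7.61. Arrays have no depth, and their number, 3 per genotype, limits the precision. No test was made over the 29 genes as a set.

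Members with an unadjusted p under 0.05 or without overlap of the groups, and the member of smallest p in each prefix, 17 in all, were followed through 14 alternatives: each array left out, a replicate block, quantile normalization, median centring, the mean of all probe sets of a gene, the genes of lowest mean level left out, the hybridisation spike level as a covariate, a prior variance that follows the level, and array weights. The other 12 members are given by value. The members and lists were chosen with earlier results of these data known. The groups by role, the genes whose promoters are shown and the counts by array were chosen after the values were seen.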

Additional observations from a re-analysis of the deposited data

How the results depend on the processing

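No member passed at an adjusted p under 0.05 in any of the 14 alternatives, where the smallest adjusted p was 0.206, with array weights. Over all genes hardly any passed either. With a prior variance that follows the level it was 1 of 494, and in every other alternative it was 0. The count of 3 at an unadjusted p under 0.05 was 1, Cstf2t, with the replicate block, beside 9.72% of all genes. It was 4 with quantile normalization, beside 11.5% of all genes, where Eif3i joined with a difference of 0.174 (unadjusted p = 0.027, adjusted p = 0.4 in limma). It was 2 with median centring, beside 10.9%, and 2 with the spike covariate, beside 10.5%, where Cstf2t dropped out. The count lay between 1 and 3 with 1 array removed at a time, beside 6.88% to 15% of all genes. Cstf2t was the 1 gene without wild-type replicate 3 and without knockout replicate 2. The 7 genes without overlap became 4 with median centring, or 13.8%, beside 15.8% of all genes. With 1 array removed at a time they became 8 to 13, where fewer arrays make overlap rarer. The share over all genes then ran from 25.3% to 34%. The 13, or 44.8%, arose without knockout replicate 1, beside 34% of all genes. Without wild-type replicate 3 there were 11, or 37.9%, beside 28.1% of all genes. The median difference of 0.011 became 0.001 with quantile normalization, -0.032 with median centring, 0.024 without the genes of lowest level and -0.017 with the spike covariate, and ran from -0.014 to 0.077 with 1 array removed at a time, so it has no stable sign. Of the 17 followed genes 12 kept their sign, as did 4 of the other 12. The followed genes were chosen in the same data, by a small p, a lack of overlap or the smallest p in their prefix. For those with a small p or no overlap, keeping their sign more often is built into the choice. The 5 followed genes that changed sign were each the only member of their prefix, and so were followed whatever their p. Cpsf7 was at -0.032 with centring, -0.047 with the spike covariate and -0.007 with array weights, and Sf3b3 at 0.046 with array weights. Removing 1 array at a time gave -0.043 to 0.081 for Cpsf7, -0.197 to 0.130 for Pabpn1, -0.085 to 0.013 for Snrnp27, -0.088 to 0.084 for Sf3b3 and -0.121 to 0.021 for G3bp2. The cause was not tested. Replicate numbers are shared by both genotypes, but the labels do not say that equal numbers pair hearts, so the replicate block has no stated basis. Deviations of same-numbered arrays had correlations of -0.15, -0.08 and 0.18. Those of other pairs of arrays ran from -0.26 to 0.28, and such values cannot settle whether hearts were paired. Dim genes such as Pabpn1 have no check against background, since no detection calls were used.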

Other observations

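In the 4 member genes with more than 1 probe set (Ddx18, Dhx15, Eif3c and Srsf3) every probe set had a higher mean in knockout hearts. For Srsf3 the dimmest probe set stood at 4.83 ± 0.20 and 5.11 ± 0.25 (SD, n = 3) and the middle one at 6.36 ± 0.14 and 6.62 ± 0.38, both with overlap of the groups. A pair of probe sets carried several symbols, of which 1 had a member prefix, and was left unnamed. They differed by -0.28 (10.70 ± 0.34 against 10.41 ± 0.21) and -0.20 (10.64 ± 0.37 against 10.43 ± 0.21), with overlap of the groups (unadjusted p = 0.16 and 0.32 in limma over 643 probe sets).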
